A study of Mus musculus with 4 samples.

Results

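Long intergenic noncoding RNAs (lincRNAs) are transcripts without a protein product whose genes lie apart from protein-coding loci in the annotation. The genes described here carry the gene type lincRNA in GENCODE M21, lie on chromosomes 1 to 19, and had at least 100 reads summed over 4 libraries of tumour-sorted myeloid cells. Gm42418, Gm26917 and a stretch of chromosome 17 around Trem2 were left out. The rule took 208 genes of the 17476 in the table. Of the 5209 autosomal lincRNA genes in the annotation, 563 were in the table after those exclusions, and 355 of them had fewer than 100 reads. The genes were thus selected on their total read number, so their levels are given as a description, while the difference between genotypes was not used by the rule.

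Some lincRNAs work in the nucleus as scaffolds. Malat1 gathers in nuclear speckles, which store splicing factors, and Neat1 is the architectural RNA of paraspeckles, which hold RNA-binding proteins. Others are named for what their loci carry, such as host genes from whose introns or exons microRNAs or small nucleolar RNAs are cut. Others again act on a neighbouring gene in the same chromosomal region. In myeloid cells Morrbid is known for restraining Bcl2l11, which encodes the death factor Bim, and lincRNA-Cox2 (Ptgs2os2) for its induction in activated macrophages.

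The study compared myeloid-derived suppressor cells (MDSCs), immature granulocytes and monocytes that restrain T cells, of 2 genotypes. The cells were differentiated in vitro from femoral bone marrow of C57/BL6 mice (WT, strain C57BL/6) or of TREM2mut mice, and given to NRG males, which lack lymphocytes, that had been challenged at 6 weeks of age with TRAMP-C1, a mouse prostate cancer line, under the skin. The injection followed 4 weeks after the challenge. Tumours were removed at 6 h after injection and digested over 45 minutes, and the CD45+, CD11B+, GR1+ cells were collected, a gate that does not separate injected cells from those of the host. Both genotypes therefore shared host, tumour, digestion and gate. The sources used here do not give the kind of mutation, the age of the marrow donors or the number of animals behind a library. Each genotype had 2 libraries, WT 1 and WT 2 against Trem2 mutant 1 and Trem2 mutant 3. Nothing says that they came from separate cultures or animals, so a p-value speaks only for the spread of these 4 libraries.

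Libraries held 8037733 to 10306674 reads, and a count of 3 reads, the floor used here, corresponded to 0.322 to 0.359 CPM (counts scaled by TMM to the size of the library). Trem2 had 406 and 477 reads in WT and 191 and 195 in the mutant libraries, a log2 fold change of −1.14 (SE 0.13, adjusted p = 0.00157, edgeR's quasi-likelihood test). Gm42418, outside the rule, took 13.9% of the reads of Trem2 mutant 1 and 0.258% to 1.04% of the other libraries. Xist, the lincRNA of the inactive X chromosome and outside the autosomal rule, had 2 and 3 reads in WT and 6928 and 9117 in the mutant libraries, so sex-linked RNA moved with genotype. The 4 Y-linked genes examined were all called lower, from −0.43 for Ddx3y over −0.68 for Eif2s3y and −1.42 for Uty to −2.74 for Kdm5d, and each kept 51 to 896 reads in a mutant library. Cell type markers also moved with genotype, those of granulocytes and monocytes, the lineages of MDSCs themselves, among them. All 9 neutrophil granule genes were called higher, with a summed level of 2289 and 2478 CPM in WT and 11953 and 16293 in the mutant libraries. Of the monocyte markers 5 of 6, of the mature neutrophil markers 6 of 7 and of the eosinophil markers 5 of 5 were called higher. So were 5 of 8 macrophage markers and 3 of 5 tested fibroblast markers. Of the 4 B cell markers, the 3 mast cell and basophil markers and the 1 tested T and NK cell marker, 0 were called. Over all genes tested 9.55% were called higher and 3.6% lower. Of the erythroid markers 2 of 3 were called higher, with a summed level of 6.53 and 25.5 CPM in WT and 57.3 and 140.5 in the mutant libraries. Of the 2 tested endothelial markers Pecam1 was called higher and Kdr was not called. Of the 2 tested markers of epithelium and tumour line, Cdh1 was called lower (−0.88) and Krt18 was not called (0.23). Epcam and Krt8 had too few reads to be tested. Monocyte markers summed to 647 and 725 CPM in WT and 3927 and 5844 in the mutant libraries, and fibroblast and mural cell markers to 108 and 158 against 400.3 and 445. No marker in the table was at 0 in every library of a genotype. The part of sex, Gm42418 and cell mixture in the lincRNA differences below was not tested, and in such bulk libraries fewer cells of a type and less RNA per cell cannot be told apart.

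Sequences are shown first for the lincRNAs on which the comparison turns. A RefSeq start site (GRCm38.p6) was found for 72 of the 208 genes, by symbol or synonym. The windows below run from 250 bases before to 50 bases after that start for 4 genes that were higher in mutant cells (F730016J06Rik, Gm14005 under its RefSeq name Morrbid, Platr7 and B230208H11Rik) and 1 that was lower (4930589L23Rik). Capitals mark matches on either strand to the core recognised by the myeloid factor PU.1 (GAGGAAG), to the sequence of the C/EBP type (TTGCNNAA) or to the core promoter element that places the start of many genes (TATAAA). None of the 3 motifs overlaps another in these windows.
F730016J06Rik, chr2:28095095-28095394, plus strand: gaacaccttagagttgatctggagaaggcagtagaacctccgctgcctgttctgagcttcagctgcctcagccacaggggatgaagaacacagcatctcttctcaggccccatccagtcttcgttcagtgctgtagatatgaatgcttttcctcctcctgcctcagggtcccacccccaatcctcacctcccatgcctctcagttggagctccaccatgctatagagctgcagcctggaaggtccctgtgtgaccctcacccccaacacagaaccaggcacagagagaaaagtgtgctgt
Gm14005 (Morrbid), chr2:128429302-128429601, minus strand: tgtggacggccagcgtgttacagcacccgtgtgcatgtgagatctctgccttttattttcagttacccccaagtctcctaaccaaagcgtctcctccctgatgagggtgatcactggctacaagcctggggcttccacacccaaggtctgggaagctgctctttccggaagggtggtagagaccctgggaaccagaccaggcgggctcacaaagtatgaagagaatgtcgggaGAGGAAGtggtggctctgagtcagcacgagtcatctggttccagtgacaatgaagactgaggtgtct
Platr7, chr10:84553289-84553588, minus strand: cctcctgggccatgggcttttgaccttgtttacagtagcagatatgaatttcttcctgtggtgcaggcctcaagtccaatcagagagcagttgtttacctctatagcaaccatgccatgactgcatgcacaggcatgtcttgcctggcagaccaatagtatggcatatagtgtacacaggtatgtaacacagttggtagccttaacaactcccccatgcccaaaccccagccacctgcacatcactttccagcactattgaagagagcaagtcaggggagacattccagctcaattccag
B230208H11Rik, chr10:12923078-12923377, minus strand: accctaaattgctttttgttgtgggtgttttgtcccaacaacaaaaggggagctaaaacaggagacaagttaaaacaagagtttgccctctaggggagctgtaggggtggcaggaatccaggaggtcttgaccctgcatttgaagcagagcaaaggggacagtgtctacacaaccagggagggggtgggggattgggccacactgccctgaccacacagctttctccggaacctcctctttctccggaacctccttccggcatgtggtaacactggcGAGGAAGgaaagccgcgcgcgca
4930589L23Rik, chr3:79567942-79568241, plus strand: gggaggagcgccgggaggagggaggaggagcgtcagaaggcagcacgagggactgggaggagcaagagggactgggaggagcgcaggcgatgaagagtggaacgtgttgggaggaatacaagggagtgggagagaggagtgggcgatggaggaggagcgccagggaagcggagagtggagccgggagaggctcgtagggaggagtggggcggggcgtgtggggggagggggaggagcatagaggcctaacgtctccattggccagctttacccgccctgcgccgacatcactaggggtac

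Only Gm14005 and B230208H11Rik held a match among these 5 windows, 1 GAGGAAG each, whose first base lay at −17 in Gm14005 and at 28 in B230208H11Rik when the start is base 1. Across the 88 windows of lincRNAs described here, GAGGAAG was present in 21 (23.9%), TTGCNNAA in 11 (12.5%) and TATAAA in 8 (9.09%). Over all 32851 windows in the table the shares were 13.6%, 10.8% and 13.6%. A match is a run of letters and not a bound site. The RefSeq start coincided with the GENCODE start for Platr7 and 4930589L23Rik and lay 132 and 37 bases upstream of it for F730016J06Rik and B230208H11Rik. The Morrbid start lay inside the GENCODE gene Gm14005.

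A different kind of sequence belongs to Gm28872, a transcript of 158 bases on chr4:132270056-132270213 (plus strand). Its bases 25 to 158, in capitals, are the reverse complement of all 134 bases of Rnu11, the U11 RNA of the minor spliceosome, which is annotated on the other strand.
Gm28872: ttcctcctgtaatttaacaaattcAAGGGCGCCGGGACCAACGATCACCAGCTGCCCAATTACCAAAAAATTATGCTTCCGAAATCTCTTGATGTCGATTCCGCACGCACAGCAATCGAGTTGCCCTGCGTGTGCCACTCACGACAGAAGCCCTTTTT

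Several of the hosts of microRNAs met again below carry well-known myeloid or proliferative microRNAs, shown with the seed (bases 2 to 8) in capitals. The microRNAs miR-17-5p and miR-20a-5p, both cut from Mir17hg, share the seed AAAGUGC, whereas those of Mir142hg and Mir155hg differ from it and from each other.
mmu-miR-142a-3p, in Mir142hg: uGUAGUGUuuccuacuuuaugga
mmu-miR-155-5p, in Mir155hg: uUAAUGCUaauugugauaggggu
mmu-miR-17-5p, in Mir17hg: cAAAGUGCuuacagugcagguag
mmu-miR-20a-5p, in Mir17hg: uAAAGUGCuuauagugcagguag

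Of all reads, 1.92% in WT 1, 2.13% in WT 2, 1.40% in Trem2 mutant 1 and 1.69% in Trem2 mutant 3 fell on the 208 lincRNAs. The exact binomial 95% interval of each share spans 1.39% to 1.40% in Trem2 mutant 1 and 2.12% to 2.14% in WT 2, and covers counting error only. Both mutant libraries were thus below both WT libraries, but 2 libraries against 2 cannot give an exact two-sided permutation p under 0.333. Most of this share was 1 RNA: Malat1 held 67.8% of all reads on these genes, and Malat1 with Neat1 73.4%. Without them the shares were 0.472% and 0.494% in WT and 0.423% and 0.489% in the mutant libraries, which overlap. Genes of noncoding and mitochondrial classes were then taken out of the total, and Gm42418 was removed with them by name. On this total the 208 genes took 2.05% and 2.24% against 1.75% and 1.82%. On that total the lincRNAs other than Malat1 and Neat1 took 0.504% and 0.520% in WT and 0.529% and 0.528% in the mutant libraries (computed after the data were seen). Both mutant libraries were then higher, but the counting intervals of WT 2 (0.515% to 0.525%) and Trem2 mutant 3 (0.524% to 0.533%) overlapped. Those antisense to protein-coding exons, whose reads cannot be separated from the gene opposite, took 0.315% and 0.312% in WT and 0.359% and 0.336% in the mutant libraries. Those without exon overlap, among which neither Malat1 nor Neat1 falls, took 0.118% and 0.127% against 0.106% and 0.119%, which overlap.

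Malat1 (chr19:5795690-5802672, minus strand) had 109181 and 119852 reads in WT and 92954 and 109729 in the mutant libraries. Its level was 12498 ± 879 CPM in WT and 11464 ± 465 in mutant cells (SD, n = 2 here and below), a log2 fold change of −0.12 (SE 0.15, adjusted p = 0.606, edgeR), so this most abundant lincRNA was not called. Neat1 (chr19:5824708-5845478, minus strand) had 7553 and 12556 reads in WT and 7341 and 7980 in the mutant libraries. WT 2 stood alone and the other 3 were alike, so the groups overlap, and the log2 fold change of −0.34 did not pass the test (SE 0.21, adjusted p = 0.321, edgeR). Without WT 2 its sign turned, to 0.08. Per kilobase of exon the order of mean levels over the 4 libraries was Malat1 with 1716 CPM, Gm29233 with 1431, Gm17300 with 194, Gm28872 with 185, Gm26669 with 179.7 and Gm26778 with 129. Neat1, whose annotated exon is 20771 bases long, came to 47.3 CPM per kilobase. The 5 genes named after Malat1 all share exon bases with another gene on the opposite strand, and their levels include whatever part of that gene's reads was assigned to them.

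Below these, levels fell away fast. The median gene had 293.5 reads over the 4 libraries, 34 genes had at least 1000, and 73 had fewer than 200. The median exon length was 2319.5 bases, against 1440 for the lincRNAs under 100 reads. Single-exon genes made up 31 of the 208, and 96 had 2 exon blocks. At the read minimum, 1810012K08Rik, Gm12589 and Gm26884 had 100 reads each and were taken, and Gm13391 and Gm26858 with 99 reads and 4933424M12Rik with 98 were not.

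Despite the name of the class, 81 of the 208 lincRNAs (38.9%) had exons overlapping a protein-coding exon on the opposite strand. The same held for 48 of the 355 lincRNAs under 100 reads (13.5%). A further 42 overlapped exons of another kind of gene, and 85 overlapped none, 19 of these inside the body of a protein-coding gene and 66 outside. Antisense genes were frequent at the top of the read order, with 7 of the first 10 and 17 of the first 30. The sources used here do not say whether reads were counted by strand, so reads of an overlapping pair cannot be told apart.

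For 18 lincRNAs at least 95% of exon bases lay within exons of the protein-coding gene opposite, and their reads were 1.31% to 100% of that gene's (median 31.6%). In 16 of the 18 the lincRNA had no more reads than its partner in every library. Gm26778 lies with all 3805 of its exon bases in exons of Kctd12, a subunit of the GABA-B receptor complex, and had 17646 reads to the partner's 22439 (78.6%). Gm26669 has 1672 of its 1808 bases in exons of Zfp36l1, which encodes a protein that speeds decay of AU-rich mRNAs, and had 76.4% of that gene's reads. The share of a partner's reads thus differed widely between these genes. In a pair of lincRNAs the counts lay close together: Mirt1 and 4833407H14Rik overlap by 1008 bases on opposite strands and had 593, 868, 833 and 899 against 518, 796, 685 and 790 reads in WT 1, WT 2, Trem2 mutant 1 and Trem2 mutant 3. In all, 15 of the 208 shared exon bases with another of them, in 8 pairs.

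Between genotypes, 184 of the 208 lincRNAs were not called. All 208 passed the filter on low counts, and in edgeR's quasi-likelihood test 17 were called higher in mutant cells (8.17%) and 7 lower (3.37%). Among all 14239 genes tested the shares were 9.55% and 3.6%, so the lincRNAs were called about as often as genes at large. Among autosomal protein-coding genes with at least 100 reads the shares were 11.2% and 4.46%. The median log2 fold change of the 208 was −0.08, beside −0.02 over all genes tested, and 152 lay within 0.5 of 0. At an unadjusted p under 0.05 there were 51. The mutant libraries lay above both WT libraries for 53 and below both for 61, where all genes tested gave 28.9% and 31.7%. The 24 called genes all had groups that did not overlap. A call with 2 libraries per genotype nearly requires this, so it lends the calls no support.

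Part of this rests on how genes entered: 10 had fewer than 50 reads in WT and so reached the minimum mainly through the mutant libraries. Of these, 6 were among the higher calls, namely F730016J06Rik, 1700047M11Rik, Platr7, B230208H11Rik, Gm13431 and Gm19705. Likewise 18 had fewer than 50 reads in the mutant libraries, with 2 of the lower calls, 4930589L23Rik and Gm26584. The read minimum favoured large differences in such genes, so the size and stability of these calls are given as a description only. Of the calls, 9 of the higher and 2 of the lower were at least 2-fold (all genes tested 3.49% and 0.667%), and those 6 and 2 with few reads in 1 genotype were among them. Of the 180 with at least 50 reads in each genotype, 11 were higher (6.11%) and 5 lower (2.78%), where the 11195 genes tested with as many reads gave 10.4% and 4.11%. At least 2-fold were 3 higher and 0 lower of these 180, against 2.72% and 0.375% of those genes. Leaving out WT 1 gave 8 higher and 2 lower calls (all genes tested 3.25% and 0.612%), leaving out WT 2 gave 10 and 2 (4.8% and 0.861%), and leaving out Trem2 mutant 3 gave 20 and 15 (14.2% and 6.2%). DESeq2 gave 15 and 3, where its shares over all genes were 7.77% and 1.45%. Scaling by library totals alone, which moved the median of all genes to −0.40, gave 12 higher and 56 lower calls (4.56% and 30.7%).

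**Figure D1:**
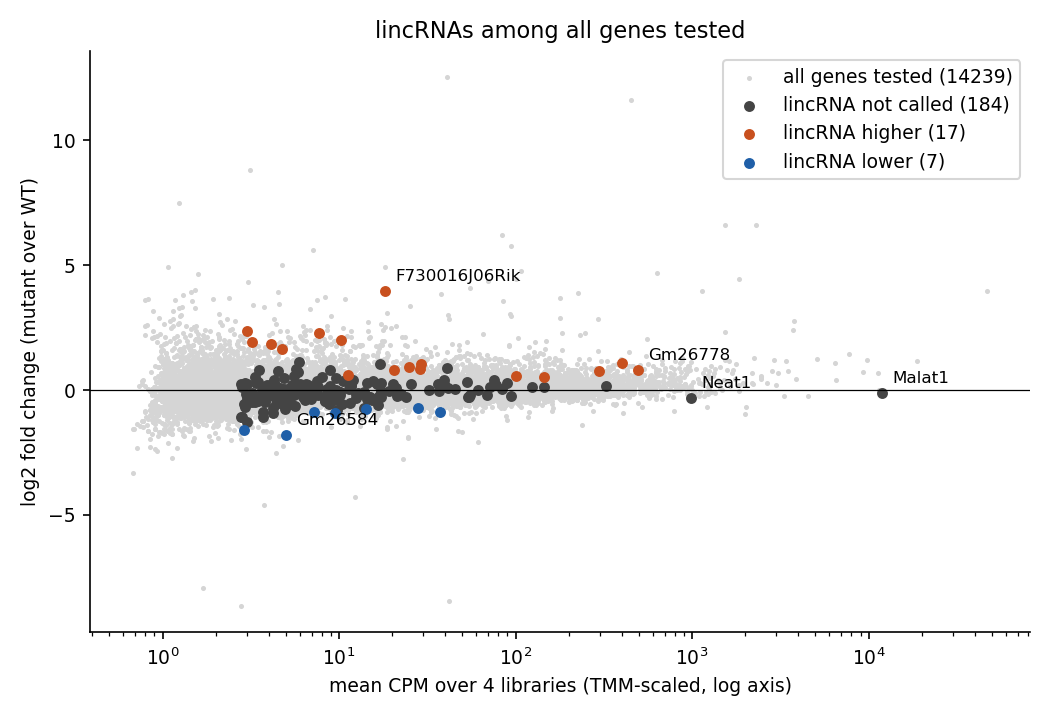
Log2 fold change of mutant over WT (y) against mean CPM over the 4 libraries (x, log axis) for all 14239 genes tested (light grey), the 184 lincRNAs not called (dark), the 17 called higher (orange) and the 7 called lower (blue). The lincRNAs lie within the cloud of all genes, Malat1 is near 0 at the highest level, and F730016J06Rik stands highest among them at 3.95.

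The largest difference was in F730016J06Rik (ENSMUSG00000086425, chr2:28095477-28127731, plus strand), a gene of 10 exon blocks. It had 24 and 16 reads in the WT and 323 and 273 in the mutant libraries. Its level was 2.18 ± 0.608 CPM in WT and 34.0 ± 6.61 in mutant cells, 15.5-fold higher, with a log2 fold change of 3.95 (SE 0.24, adjusted p = 0.000106, edgeR). The call held in all 13 alternative fits, among which the 2-fold minimum is not counted, with log2 fold changes of 3.57 to 4.27. F730016J06Rik reached the read minimum mainly through the mutant libraries, where it is high, so this stability is not independent support. The nearest protein-coding gene, 10592 bases away and transcribed in the opposite direction, is Fcnb, which encodes ficolin B, a pattern-recognition lectin of granulocyte and monocyte precursors. Fcnb had 3 and 2 reads in WT, at or below the floor, and 157 and 84 in the mutant libraries, and its call was higher as well.

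Of the 17 that rose, 10 shared no exon bases with any gene, F730016J06Rik among them, and 8 of the 10 lie outside every protein-coding gene body. 1700047M11Rik (chr1:182287990-182303325, plus strand) had 26 and 22 reads in WT and 122 and 102 in the mutant libraries. It was 4.85-fold higher (log2 fold change 2.28, SE 0.25, adjusted p = 0.00163, edgeR), and this call too held in all 13 alternatives. 1700047M11Rik also reached the read minimum mainly through the mutant libraries, so this stability is not independent support. It lies 5186 bases from Degs1, which encodes the desaturase that completes ceramide synthesis and rose by a log2 fold change of 0.46. Platr7 (chr10:84547417-84553338, minus strand), named as a pluripotency-associated transcript, had 21 and 12 reads in WT and 53 and 61 in the mutant libraries, 3.57-fold higher (log2 fold change 1.83, SE 0.32, adjusted p = 0.0101, edgeR). Its neighbour Ckap4, 13355 bases away on the same strand, encodes a membrane protein of the endoplasmic reticulum and rose by 1.55 on the log2 scale. B230208H11Rik (chr10:12916648-12923090, minus strand) had 24 and 18 reads in WT and 55 and 72 in the mutant libraries, 3.12-fold higher (log2 fold change 1.64, SE 0.28, adjusted p = 0.00891, edgeR). It lies 15119 bases from Stx11, a syntaxin of granule release in leukocytes, which rose by 1.05. Without WT 2 both calls were lost, at log2 fold changes of 1.49 (adjusted p = 0.0563, edgeR) for Platr7 and 1.45 (adjusted p = 0.0561, edgeR) for B230208H11Rik.

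The next 3 rest on few reads or on 1 library. Gm13431 (chr2:36216777-36222934, plus strand) had 9 and 9 reads in WT and 29 and 62 in the mutant libraries (log2 fold change 2.36, SE 0.43, adjusted p = 0.0126, edgeR). It lies 7492 bases from Ptgs1, the gene of the constitutive cyclooxygenase. Its call was lost without WT 1 or WT 2, each time at 2.36. Gm19705 (chr1:136670769-136690804, plus strand) had 7 and 17 reads in WT and 52 and 37 in the mutant libraries (log2 fold change 1.94, SE 0.44, adjusted p = 0.0281, edgeR), and 1.44 without WT 1, where the call was lost. Gm29895 (chr8:78044010-78055473, plus strand) had 28 and 47 reads in WT and 69 and 231 in the mutant libraries. Here Trem2 mutant 3 stood far above Trem2 mutant 1, and the log2 fold change of 2.02 (SE 0.51, adjusted p = 0.0395, edgeR) went to 1.03 without Trem2 mutant 3. Its call was lost without WT 1 (1.69) or WT 2 (2.44), with DESeq2 (adjusted p = 0.119) and with limma-voom (adjusted p = 0.08997).

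Smaller rises completed the group without exon overlap. Gm43660 (chr5:31560812-31569072, minus strand) had 178 and 198 reads in WT and 250 and 412 in the mutant libraries (log2 fold change 0.86, SE 0.19, adjusted p = 0.024, edgeR). Its neighbour Slc4a1ap, 3880 bases away, was at −0.23 and was not called. C530050E15Rik (chr13:24631918-24638567, minus strand) lies inside Ripor2, a protein-coding gene, on the other strand. It had 140 and 135 reads in WT and 217 and 239 in the mutant libraries (log2 fold change 0.78, SE 0.12, adjusted p = 0.00659, edgeR), while Ripor2 rose by 1.25. Prr33 (chr7:142491074-142506771, minus strand) lies inside Lsp1, a leukocyte actin-binding protein gene, and had 83 and 79 against 110 and 129 reads (log2 fold change 0.61, SE 0.17, adjusted p = 0.0497, edgeR). Prr33 was the least stable of these calls, lost in 9 of the 13 alternatives, the loss of any library among them, with log2 fold changes of 0.58 to 0.66 without single libraries. Gm43660 and C530050E15Rik lost their calls without WT 1 (0.78 and 0.80) or WT 2 (0.94 and 0.76) and with library totals alone (0.50 and 0.41).

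Gm14005 (chr2:128178319-128502765, minus strand), the gene RefSeq names Morrbid, was the only one of 4 lincRNAs on a list of myeloid and innate immune lincRNAs that was called. It had 150 and 163 reads in WT and 308 and 269 in the mutant libraries, so that the groups did not overlap. Its level was 17.1 ± 1.08 CPM in WT and 32.9 ± 5.65 in mutant cells, 1.92-fold higher (log2 fold change 0.94, SE 0.15, adjusted p = 0.00708, edgeR). Bcl2l11, the gene it is known to restrain, lies 15772 bases away and had 2703 and 3512 reads in WT and 2937 and 3408 in the mutant libraries. Its log2 fold change was 0.08 (SE 0.13, adjusted p = 0.707, edgeR), with overlapping groups. Without WT 1 the Gm14005 call was lost, at 0.88 (adjusted p = 0.0586, edgeR). The gene shares 173 and 128 exon bases with 2 other lincRNA genes, so part of its reads is of uncertain origin. Of the other 3 on the list, Ptgs2os2 had 100 and 149 reads in WT and 112 and 199 in the mutant libraries (log2 fold change 0.36, adjusted p = 0.398, edgeR). Its distant neighbour Ptgs2, the inducible cyclooxygenase, had a log2 fold change of 1.30 (adjusted p = 0.0644, edgeR), also not called. Mirt1 was at 0.30 (adjusted p = 0.254, edgeR) and Gm20186 at 1.05 (adjusted p = 0.186, edgeR).

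The remaining 7 rises, Gm14005 included, were in genes that share exon bases with another gene, and for 6 of them (Gm26778, Gm29233, Gm28872, Gm17300, Gm26762 and Gm26541) a gene opposite was called higher as well. Gm26778 had 3062 and 3535 reads in WT and 5095 and 5954 in the mutant libraries (log2 fold change 0.80, SE 0.10, adjusted p = 0.00286, edgeR), and Kctd12 opposite to it rose by 0.72. Gm29233 (chr2:118123451-118124047, minus strand) has 208 of its 281 exon bases opposite exons of Thbs1, the gene of thrombospondin 1, a matrix glycoprotein. It had 2200 and 2520 reads in WT and 5568 and 3967 in the mutant libraries (log2 fold change 1.09, SE 0.19, adjusted p = 0.0109, edgeR), 4.11% of the reads of Thbs1, which rose by 1.19. Its call was lost without WT 1 (0.99, adjusted p = 0.0748, edgeR). Gm28872, shown above, had 187 and 165 reads in WT and 381 and 306 in the mutant libraries (log2 fold change 1.03, SE 0.17, adjusted p = 0.00843, edgeR). Rnu11 had 179, 130, 368 and 298 reads in the same order of libraries, a log2 fold change of 1.17, so the 2 genes have nearly the same counts in each library.

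Gm17300 (chr4:132351772-132353382, plus strand) lies opposite Snhg3 and its small nucleolar RNAs, among them Snora73b, which acts in ribosomal RNA processing. It had 2192 and 1808 reads in WT and 3250 and 3315 in the mutant libraries (log2 fold change 0.77, SE 0.11, adjusted p = 0.00434, edgeR). Snora73b had 1497 and 1102 against 2172 and 2342 reads and rose by 0.85, whereas Snhg3 itself had 52, 73, 52 and 66 reads and a log2 fold change of −0.03. The only protein-coding exon that Gm17300 touches, by 19 bases, belongs to Rcc1, at −0.20 and not called. A pair of weaker rises lay opposite metabolic and signalling genes. Gm26762 (log2 fold change 0.53, SE 0.11, adjusted p = 0.0231, edgeR) overlaps Gpi1, the gene of glucose-6-phosphate isomerase, by 741 bases. Gm26541 (0.57, SE 0.09, adjusted p = 0.00546, edgeR; named after its value was seen) overlaps Mob3a, a gene of a kinase-adaptor family, by 1921 bases. Both lost their calls with library totals alone (0.15 and 0.20) and without WT 2 (0.58 and 0.49), and Gm26762 also without WT 1 (0.48). The calls of Gm26778, Gm28872 and Gm17300 held in all 13 alternatives.

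**Figure D2:**
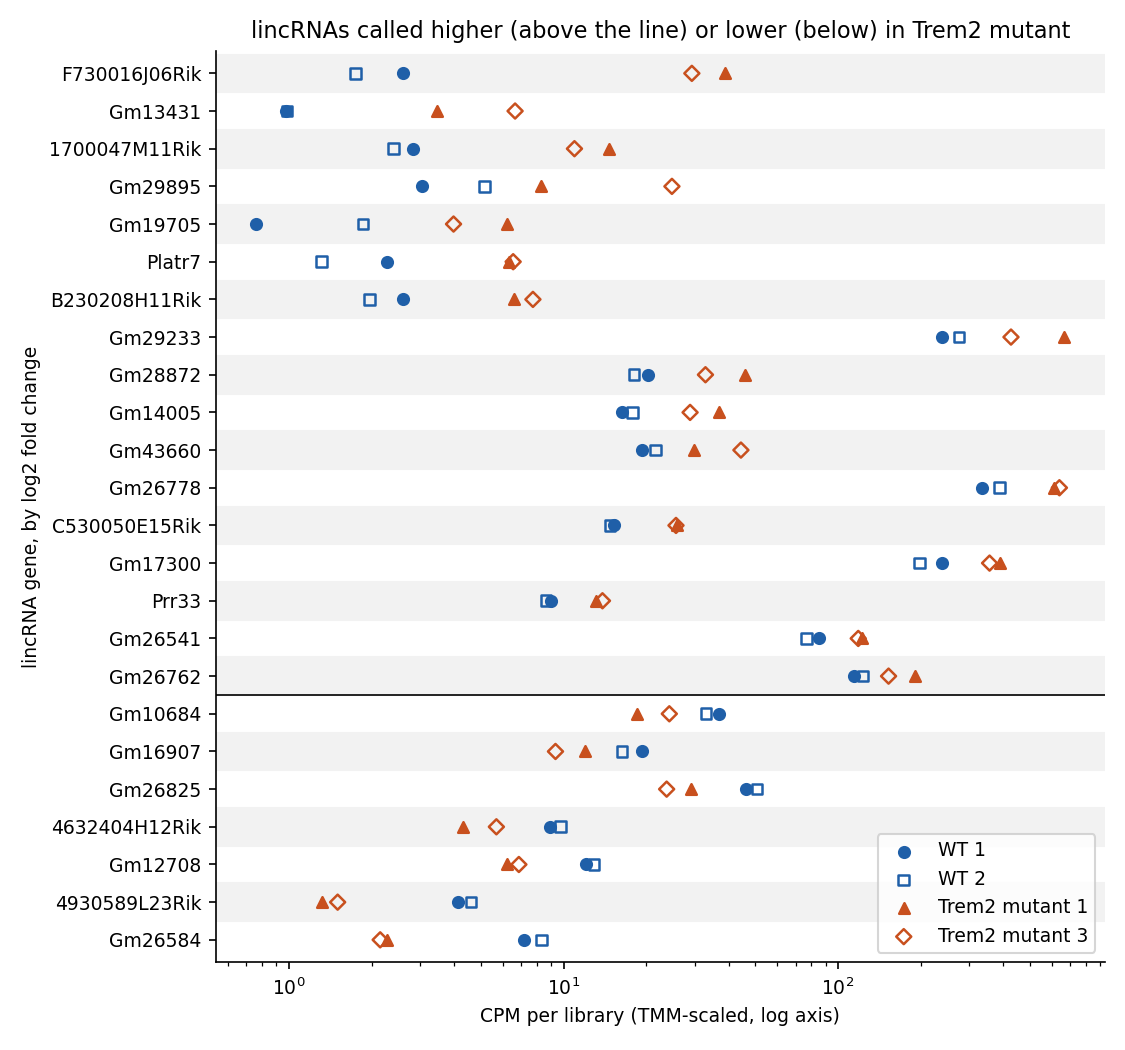
CPM in each of the 4 libraries (x, log axis; circles and squares WT 1 and WT 2, triangles and diamonds Trem2 mutant 1 and 3) for the 24 lincRNAs called different, ordered by log2 fold change. The WT and mutant libraries do not overlap in any row, which a call with 2 libraries per genotype nearly requires. F730016J06Rik shows the widest gap, and Gm29895 the widest distance between the mutant libraries.

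Among the 7 that fell, 3 shared no exon bases with another gene. 4930589L23Rik (chr3:79568192-79572580, plus strand) starts 396 bases from Fnip2, a folliculin partner in nutrient signalling, in the opposite direction. It had 38 and 42 reads in WT and 11 and 14 in the mutant libraries, 3.07-fold lower in mutant cells (log2 fold change −1.62, SE 0.31, adjusted p = 0.0154, edgeR). Fnip2 fell with it, at −0.67. Gm12708 (chr4:95193313-95209727, plus strand), 141091 bases from the AP-1 gene Jun, had 111 and 118 reads in WT and 52 and 64 in the mutant libraries (log2 fold change −0.93, SE 0.19, adjusted p = 0.017, edgeR). Jun was at 0.25 and was not called. 4632404H12Rik (chr3:89767511-89773240, minus strand) has a single exon and starts 376 bases from Ube2q1, a ubiquitin-conjugating enzyme gene, and had 82 and 89 against 36 and 53 reads (log2 fold change −0.89, SE 0.23, adjusted p = 0.0411, edgeR). Ube2q1 was at 0.05, not called. All 3 calls were lost without WT 1 (−1.69, −0.98 and −0.95 in this order), without WT 2 (−1.54, −0.88 and −0.83) and with DESeq2, and that of 4632404H12Rik also without Trem2 mutant 1 (−0.70). In all, 9 lincRNAs without exon overlap start within 1000 bases of a protein-coding gene transcribed in the opposite direction. Of these 0 were higher and 2 lower, 4930589L23Rik and 4632404H12Rik. Of all 208 lincRNAs 8.17% were higher and 3.37% lower, and of all genes tested 9.55% and 3.6%. These 9 genes are too few to read a tendency from 2 calls that were lost in the fits just given.

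The other 4 overlap a gene on the opposite strand. Gm26584 (chr8:40862395-40865647, minus strand) lies over Slc7a2, which encodes a cationic amino acid transporter that brings arginine into macrophages. It had 66 and 76 reads in WT and 19 and 20 in the mutant libraries, 3.49-fold lower in mutant cells (log2 fold change −1.80, SE 0.26, adjusted p = 0.00465, edgeR). Slc7a2 fell less, with 630 and 702 against 387 and 298 reads and a log2 fold change of −0.89, although the difference between the pair was not tested. Gm26825 (chr5:5781530-5783636, plus strand), opposite the processed pseudogene Gm15459 with 1860 of its bases, had 426 and 463 reads in WT and 244 and 221 in the mutant libraries (log2 fold change −0.88, SE 0.13, adjusted p = 0.00505, edgeR). The calls of Gm26584 and Gm26825 held in all 13 alternatives. Gm26584 reached the read minimum mainly through the WT libraries, where it is higher, so its stability is not independent support. Gm16907 had 178 and 149 against 100 and 87 reads (log2 fold change −0.75, adjusted p = 0.0356, edgeR) and overlaps 2010111I01Rik, an aminopeptidase gene, which fell by 0.64 on the log2 scale. Gm10684 had 338 and 302 against 154 and 226 reads (log2 fold change −0.70, adjusted p = 0.0218, edgeR) and overlaps Jaml, a leukocyte adhesion gene, which fell by 0.49. Both lost their calls without WT 1 (−0.62 and −0.63) or WT 2 (−0.86 and −0.78), and Gm16907 also without Trem2 mutant 3 (−0.56) and with DESeq2 (adjusted p = 0.0974).

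Set beside their protein-coding neighbours over the whole class, antisense lincRNAs lay nearer to the gene they overlap than the others lay to the gene next to them. In 80 antisense pairs in which both genes were tested, the log2 fold changes had the same sign in 67, a median absolute difference of 0.14 and a Spearman correlation of 0.77. For 70 lincRNAs without exon overlap and the nearest protein-coding gene, the sign was shared in 44, the median absolute difference was 0.31 and the correlation was 0.52. Inside gene bodies it was 0.47 (18 genes), and outside them 0.54 (52 genes). These correlations run across genes, which are not independent replicates: both members of a pair come from the same 4 libraries, and antisense pairs may share reads. Read number differed too, with 107810 reads on the 81 antisense lincRNAs and 38145 on the 85 without exon overlap. The difference between the 2 kinds of pair, and the part of read number in it, was not tested. Of the 8 called antisense genes, the partner was called in the same direction for 7, and of the 13 called genes without overlap, the nearest gene for 9. Of autosomal protein-coding genes with at least 100 reads, 11.2% were called higher and 4.46% lower. How often the neighbours of uncalled lincRNAs were called is not given here, and a link between the calls was not tested. The nearest gene of 4 called genes without overlap was not called or not tested, as for Gm12708 and Gm43660.

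**Figure D3:**
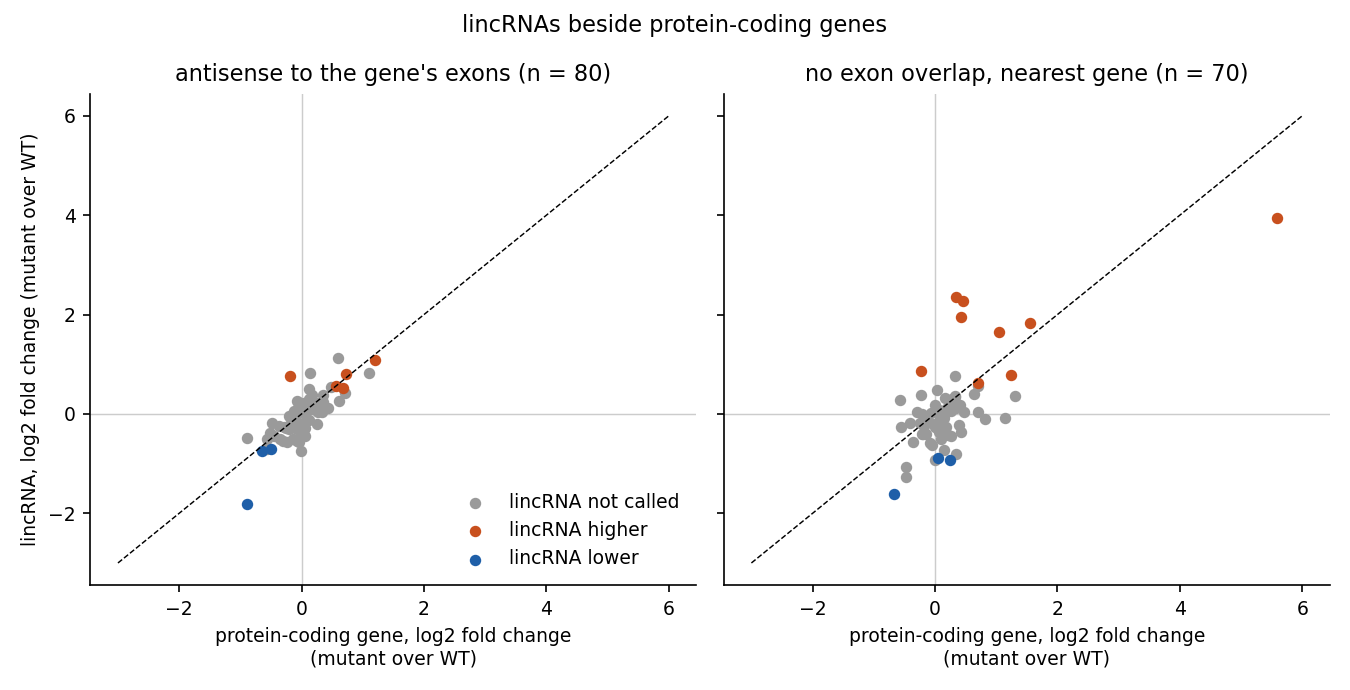
Log2 fold change (mutant over WT) of each lincRNA (y) against that of the protein-coding gene opposite its exons (left, 80 pairs) or nearest to it (right, 70 pairs); grey not called, orange higher, blue lower, dashed line equal change. Antisense pairs lie closer to the line (correlation 0.77) than neighbours without overlap (correlation 0.52), where F730016J06Rik and Fcnb stand at the upper right.

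A list of nuclear or abundant lincRNAs held 17 symbols, matched by symbol alone. The 5 found among the 208 were Malat1, Neat1, 2900097C17Rik, Lncpint and Pvt1. Of these 0 were called, with a median log2 fold change of −0.12. Over all genes tested 9.55% were higher and 3.6% lower, so 0 of 5 says little about the list. 2900097C17Rik is Norad, which binds Pumilio proteins, and had 79 and 93 reads in WT and 79 and 77 in the mutant libraries. Lncpint, a p53-induced RNA, had 82 and 113 against 84 and 73, and Pvt1, the neighbour of Myc, 73 and 61 against 61 and 57. The groups overlap for all 3. 1700020I14Rik, known as Cyrano, a lincRNA that triggers decay of miR-7, was named after its value was seen: it had 1099 and 1086 reads in WT and 1052 and 1231 in the mutant libraries, a log2 fold change of 0.12 (SE 0.08, adjusted p = 0.351, edgeR). Trp53cor1, the p53-responsive lincRNA-p21 next to Cdkn1a, also named after its value was seen, had 55 and 41 against 28 and 28 reads (−0.72, adjusted p = 0.134, edgeR).

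Of 6 lincRNAs on the lists of small RNA hosts, 0 were called. The 3 listed hosts of small nucleolar RNAs had a median log2 fold change of −0.57. Snhg20 had 52 and 41 reads in WT and 14 and 28 in the mutant libraries, so the groups did not overlap, but its log2 fold change of −1.10 missed the threshold (SE 0.34, adjusted p = 0.0748, edgeR). Snhg6 had 70 and 47 against 35 and 41 reads (−0.57) and Snhg12 had 54 and 38 against 28 and 42 (−0.34). The 3 listed microRNA hosts had a median of −0.08. Mir142hg, the host of the blood-cell microRNA miR-142, had 107 and 153 reads in WT and 117 and 119 in the mutant libraries (−0.08, adjusted p = 0.819, edgeR). Mir17hg had 94 and 83 against 38 and 89 (−0.44, adjusted p = 0.397, edgeR), with Trem2 mutant 1 alone low. Mir155hg, the host of the inflammation-induced miR-155, had 16 and 35 against 17 and 41 (0.22, adjusted p = 0.794, edgeR). WT 2 and Trem2 mutant 3 were the high libraries, so the groups overlap. RefSeq hairpins lie on the same strand in 4 more lincRNAs that the lists do not hold, 6720427I07Rik (let-7a-1, let-7d and let-7f-1; −0.26), 4833445I07Rik (miR-191 and miR-425; −0.08), Gm37233 (miR-5103; 0.22) and 2900076A07Rik (miR-1839; −0.42), and 0 of these were called. Mature microRNAs were not measured. Of the protein-coding machinery of these nuclear bodies, 10 paraspeckle genes gave 0 higher and 2 lower calls, Rbm14 (−0.43) and Matr3 (−0.35), while 9 speckle genes and 10 genes of nuclear RNA decay gave 0 calls. Over all genes tested 9.55% were higher and 3.6% lower.

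Libraries of 1 genotype were also compared with each other. Among those with at least 50 reads in a genotype, the median absolute log2 ratio between its libraries was 0.24 in WT (198 genes) and 0.24 in the mutant libraries (190 genes), against 0.13 and 0.16 over all genes with as many reads. The part of read number in this gap was not tested. The 95% counting interval of the ratio excluded 1 for 48 genes in WT and 58 in mutant cells, the genes named next being chosen after these ratios were seen. Gm20186 and Gm26809, which overlap by 855 bases upstream of Lsm8, had 92 and 253 reads in Trem2 mutant 1 and 327 and 709 in Trem2 mutant 3, ratios of 3.19 (2.52 to 4.06) and 2.51 (2.17 to 2.91). In WT they had 80 and 191 reads in WT 1 and 126 and 337 in WT 2, while Lsm8, a gene of the U6 snRNP, had 193, 215, 165 and 249 reads. Without Trem2 mutant 3 the log2 fold change of Gm20186 went from 1.05 to −0.01.

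In WT, A530013C23Rik, 759 bases from Cebpb, the gene of an emergency-granulopoiesis factor, had 63 and 139 reads (ratio 2.22, 1.64 to 3.04), while Cebpb itself had 2999 and 3143. The overlapping pair AI480526 and 4932422M17Rik beside Setd1b, a histone H3 methyltransferase gene, had 49 and 33 reads in WT 1 and 100 and 76 in WT 2. Gm45556 had 55 and 134 reads and Gm26561 30 and 81 in WT 1 and WT 2. Each of these genes was higher in WT 2, as Neat1 was, and none was called between genotypes. Of the 48 lincRNAs in WT whose interval excluded 1, 36 were higher in WT 2 and 12 lower. AU019990, among the lower, had 43 reads in WT 1 and 22 in WT 2. The share of such intervals over all genes is not given here.

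**Figure D4:**
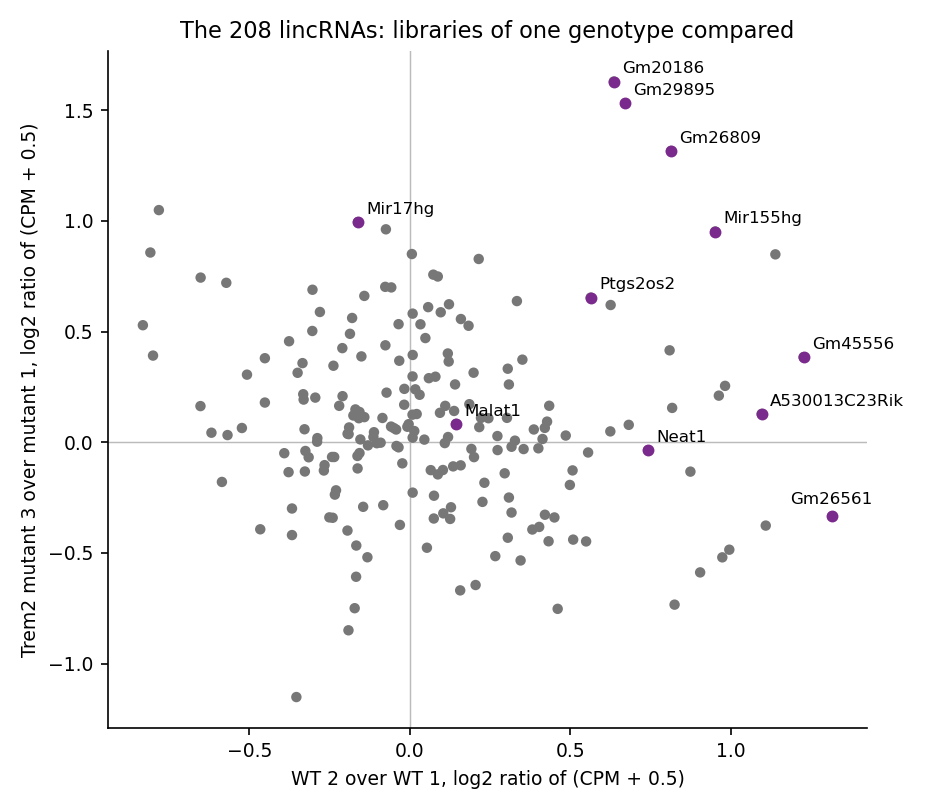
Log2 ratio of CPM + 0.5 between the WT libraries (x, WT 2 over WT 1) and between the mutant libraries (y, Trem2 mutant 3 over Trem2 mutant 1) for the 208 lincRNAs, each a point; named genes in purple. Gm20186, Gm26809 and Gm29895 stand high in Trem2 mutant 3, Gm26561, Gm45556, A530013C23Rik and Neat1 in WT 2, and Malat1 lies near 0 on both axes.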

How the data were processed

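RNA was measured in 4 libraries of sorted MDSCs, 2 per genotype, from total RNA with ribosomal RNA depleted, per the labels' protocols. The authors deposited raw counts, unnormalized whole numbers of reads for each Ensembl gene. FastQC, STAR 2.5.2a, DESeq2 and the build GRCm38 (mm10) are named in the submitters' processing notes. Counter, strand setting and annotation release: not given in the sources used here. No gene in the table had fewer than 11 reads in all. GENCODE M21 on GRCm38, used for types, exons and positions, matched 17422 of the 17476 IDs, and 54 had no match. The mutant column numbered 3, a number in no label, entered by its genotype alone.

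Here, counts were filtered with filterByExpr, leaving 14239 genes, scaled with TMM and tested on all of them with edgeR 4.0.16 (R 4.3.3; glmQLFit and glmQLFTest, genotype as the only term, two-sided), with Benjamini-Hochberg adjustment over all genes at 0.05. Residual degrees of freedom were 2 and prior degrees of freedom 5.71; the common biological coefficient of variation was 0.106. CPM are scaled by TMM and floors of 3 counts and 95% intervals cover counting error only. Alternatives were other scalings, other filters, DESeq2 1.42.0, limma-voom (limma 3.58.1), edgeR's other quasi-likelihood form, a fit without 403 noncoding-class and mitochondrial genes, a 2-fold minimum, and each library left out in turn, where the lone library of a genotype was assumed to vary like the other genotype. Gm42418 was among the 403 genes and was taken out by name. Exon overlap counts bases in merged exons.

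The genes described and all gene lists were chosen with earlier results of these data known. Genes were named by rule: up to 15 called genes per direction with the largest change, the 8 with the highest mean CPM, every listed lincRNA, and the 3 on either side of the read minimum. The list of imprinted lincRNAs had 0 members among the 208. Genes named otherwise are marked as chosen after their values were seen. Genes opposite or nearest to a lincRNA follow from position, and the 3 motifs and the lincRNAs whose sequences are shown were chosen after the calls were known.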

Additional observations from a re-analysis of the deposited data

How the results depend on the processing

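No paired analysis was possible because the WT columns carry the numbers 1 and 2 and the mutant columns 1 and 3, so the genotypes share a single number. Over the alternatives named above, the count of lincRNAs higher (17) moved beyond 1.5 times with a 2-fold minimum (9) and ran from 8 to 23 with each library left out, lowest without WT 1. The count lower (7) was 56 with library totals alone, 3 with DESeq2 (which called 1.45% of all genes lower, against 3.6% with edgeR), 2 with a 2-fold minimum and 2 to 15 with each library left out. The rank correlation without exon overlap (0.52) ran from 0.41, without WT 1, to 0.54 with each library left out. Shares of reads (1.92%, 2.13%, 1.40% and 1.69%) became 0.472%, 0.494%, 0.423% and 0.489% without Malat1 and Neat1, and 2.05%, 2.24%, 1.75% and 1.82% with noncoding and mitochondrial classes out of the total, and 0.504%, 0.520%, 0.529% and 0.528% with both, a setting chosen after seeing the data. Calls that held in all 13 alternative fits, the 2-fold minimum not counted, were those of Gm26778, Gm17300, Gm28872, F730016J06Rik, 1700047M11Rik, Gm26825 and Gm26584. Of these, F730016J06Rik, 1700047M11Rik and Gm26584 reached the read minimum mainly through the genotype in which they were higher. Without WT 1, 9 higher and 5 lower calls were lost, and as many without WT 2. Of 559 log2 fold changes of named lincRNAs under alternatives, 482 kept side and direction, 47 lost the call, 11 gained it and 19 turned sign, all 19 in genes not called. With library totals alone these were Gm26669 (−0.19), Gm26899 (−0.25), Mir155hg (−0.13), Mirt1 (−0.073), 1700020I14Rik (−0.25) and 4833407H14Rik (−0.15). The others turned with 1 library left out, over ranges of −0.66 to 0.079 for Neat1, −0.20 to 0.043 for 2900097C17Rik, −0.47 to 0.0010 for Lncpint, −0.24 to 0.018 for Pvt1, −0.32 to 0.20 for Mir142hg, −0.43 to 0.90 for Mir155hg, −0.00045 to 0.68 for Ptgs2os2, −0.011 to 1.65 for Gm20186 and −0.062 to 0.57 for 4833407H14Rik. The causes of these moves were not tested. Read number limits the rest: 73 of the 208 genes had fewer than 200 reads over the 4 libraries.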
